A study of Mus musculus with 4 samples.

Results

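The transcripts of 10 genes of the hypoxia response and of glucose breakdown were followed in nuclei of the mouse forebrain before and after stroke. The genes were Hif1a, Epas1, Egln3, Slc2a1, Slc2a3, Hk2, Pfkfb3, Ldha, Pdk1 and Bnip3. They were picked by symbol from the 46983 genes listed in the count matrices. The animals were male C57Black/6 mice aged 3 months. Stroke was induced by MCAO, in which the middle cerebral artery is closed for good, here by coagulating and cutting the vessel. Single-nucleus RNA sequencing gave 4 libraries, namely a sham control and 3 taken after occlusion, on day 1, day 3 or day 7. Each library was a pool of 3 forebrain hemispheres, so every group had 1 library and no difference between groups has a replicate check. The labels describe the control tissue once as forebrain hemisphere and once as intact cortex. The group label reads sham control, while the study's methods name intact tissue as the control. It is thus not settled whether the control animals were operated. The sham control library held 354 striatal projection neuron-like nuclei, 16.7% of its nuclei.

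After droplets without nuclei and likely doublets were removed, 7808 nuclei remained, 2118 in sham control, 1019 on day 1, 3098 on day 3 and 1573 on day 7. Total counts of unique molecular identifiers (UMIs, each standing for 1 captured RNA molecule) lay between 23285489 and 42963698 per library. The median nucleus held 10945 UMIs on day 1 and 5412 to 6953 in the other libraries. Numbers of nuclei per time point as published match these libraries only after an exchange of the day 3 and day 7 labels. Another measure does not call for the exchange, since the published day with the most reactive microglia is the one whose deposited library has more Gpnmb, a gene of such cells, in microglia-like nuclei. Gpnmb stood at 263 CPM on day 3 and 36.2 CPM on day 7, where free RNA was estimated to give 16.5 and 4.50 CPM. The deposited labels are used here, and every statement on either day carries that doubt. Between 0 and 3 barcodes were shared by any pair of libraries. RNA floating freely in the nuclear suspension was estimated as 1 number of UMIs per nucleus in each library, so that it weighs most in small nuclei. It came to 13.4 to 14.4% of the UMIs of neurons, 26.0 to 36.5% in astrocyte-like, 21.7 to 41.2% in endothelial-like, 41.0 to 56.9% in microglia-like and 53.6 to 60.5% in oligodendrocyte-like nuclei. The level it would give is set beside low values below, and a gene can also lie under it, so it is an estimate and no floor. A value read as background lay near or under this estimate, and no change is read from it. Whether free RNA gave such values was not tested.

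Nuclei were clustered, and each cluster was scored for each cell type by the mean log2 ratio of its 5 best markers to all other nuclei. The highest type gave the name where at least 3 of its markers were raised, the score was at least 1 and its lead at least 0.5. The name was withheld where another type had more markers among the 10 leading genes, or where mitochondrial genes led. All 13 microglial, 12 astrocytic, 12 oligodendrocytic and 11 endothelial markers had UMIs in the class of that name in every library. Neurons also held UMIs of all these markers in every library, so detection alone does not separate the classes. In sham control, microglial markers summed to 9549 CPM in their class and 115 CPM in neurons, and astrocytic ones to 21245.5 and 1210 CPM. Oligodendrocytic markers summed to 21685 and 268 CPM and endothelial ones to 14512 and 41.5 CPM. Microglia-like nuclei numbered 88 in sham control, 44 on day 1, 189 on day 3 and 95 on day 7. Endothelial-like nuclei numbered 40, 6, 74 and 21 in the same order, and the 6 nuclei of day 1 are given as values without comparison. All neurons together numbered 1400, 676, 1932 and 1030. Levels are CPM, the UMIs of a gene per 1000000 UMIs of the class. Intervals are exact at 95% and cover counting error only, not differences between animals. A member was counted as higher or lower than sham control when the ratio of CPM reached 1.5-fold in either direction and the gene had at least 30 UMIs in both sums together. A level is a share of the class total, so it can also move when other genes of the class move.

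When oxygen is short, the hypoxia-inducible factors escape destruction and switch on genes that bring in glucose, break it down to lactate and hold pyruvate back from the mitochondria. Hif1a and Epas1 encode the oxygen-regulated subunits HIF-1α and HIF-2α. In the presence of oxygen, prolyl hydroxylases such as the product of Egln3 mark them for degradation, so the factors are controlled largely as proteins, which RNA counts do not measure. In stroke, the pathway is known for its response in the oxygen-starved tissue around the blocked vessel.

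The factors bind DNA at hypoxia response elements, whose core is ACGTG or GCGTG. RefSeq promoter windows (GRCm38.p6, 250 bases before to 50 after a RefSeq start, which for some members lies inside the gene span given below) were found for 8 of the 10 members, 11 windows in all, and none for Epas1 and Slc2a3. Of these 11 windows, 10 held at least 1 core on either strand, against 43.8% of 32851 windows of all genes. A letter match is a description and no proof of binding. The first of the 2 Ldha windows is shown because it held the most cores, 7, against 2 in the other. Those of Slc2a1 and Hk2 are shown as examples of genes highest in endothelial-like and in microglia-like nuclei. Capitals mark the cores on either strand, and CACGTG holds 2 overlapping cores, 1 on each strand. At least 5 cores were found in 1.66% of all windows. The windows lie at chr7:46845554-46845853 (plus strand) for Ldha, chr4:119108495-119108794 (plus strand) for Slc2a1 and chr6:82774405-82774704 (minus strand) for Hk2.
Ldha: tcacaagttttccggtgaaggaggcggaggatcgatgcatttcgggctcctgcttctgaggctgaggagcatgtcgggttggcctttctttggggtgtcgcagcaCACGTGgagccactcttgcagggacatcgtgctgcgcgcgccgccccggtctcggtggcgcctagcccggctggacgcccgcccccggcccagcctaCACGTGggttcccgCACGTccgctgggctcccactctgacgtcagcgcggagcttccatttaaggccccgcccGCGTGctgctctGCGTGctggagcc
Slc2a1: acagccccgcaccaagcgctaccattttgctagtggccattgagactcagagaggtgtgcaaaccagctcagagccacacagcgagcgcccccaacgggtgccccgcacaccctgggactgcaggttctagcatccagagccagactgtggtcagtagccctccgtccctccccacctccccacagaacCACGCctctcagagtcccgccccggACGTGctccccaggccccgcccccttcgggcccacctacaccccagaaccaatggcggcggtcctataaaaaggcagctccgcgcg
Hk2: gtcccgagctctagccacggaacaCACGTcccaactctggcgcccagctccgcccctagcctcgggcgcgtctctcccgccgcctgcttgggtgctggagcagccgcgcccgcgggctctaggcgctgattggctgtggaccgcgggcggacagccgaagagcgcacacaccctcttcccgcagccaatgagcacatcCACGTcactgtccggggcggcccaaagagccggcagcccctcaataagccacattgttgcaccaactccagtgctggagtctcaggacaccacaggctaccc
The Slc2a1 and Hk2 windows held 2 cores each. Bnip3 held 5, Hif1a 3, Egln3 1, and Pfkfb3 and Pdk1, with 2 windows each, held 4 and 1 and 2 and 0.

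Every member had a class in which its level was highest, averaged over the 4 libraries, among the 10 classes with at least 30 nuclei in sham control. Endothelial-like nuclei led for Hif1a, Epas1, Slc2a1, Ldha and Bnip3. Microglia-like nuclei led for Hk2, Pfkfb3, Pdk1 and Egln3. Striatal projection neuron-like nuclei led for Slc2a3. The lead of Egln3 rests on 8 UMIs of day 7, and in sham control microglia-like nuclei held none. The smaller vascular leptomeningeal-like class, which was not ranked, had a higher level of it in 3 libraries. The leads of Hif1a and Bnip3 in endothelial-like nuclei rest on the 6 nuclei of day 1, with 9 and 2 UMIs, and for Hif1a the microglia-like level was the higher one on days 3 and 7 (235 against 177 CPM and 194 against 154 CPM). The lead over the next class was 54.2-fold for Slc2a1, 13.5-fold for Epas1 and 12.5-fold for Hk2. It was 4.44-fold for Ldha and 2.64-fold for Pfkfb3, and under 2-fold for the other 5 members. In sham control alone, the first class of Slc2a1, Epas1, Hk2 and Pfkfb3 stood apart from the next beyond counting error, whereas that of the other 6 members did not.

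**Figure D1:**
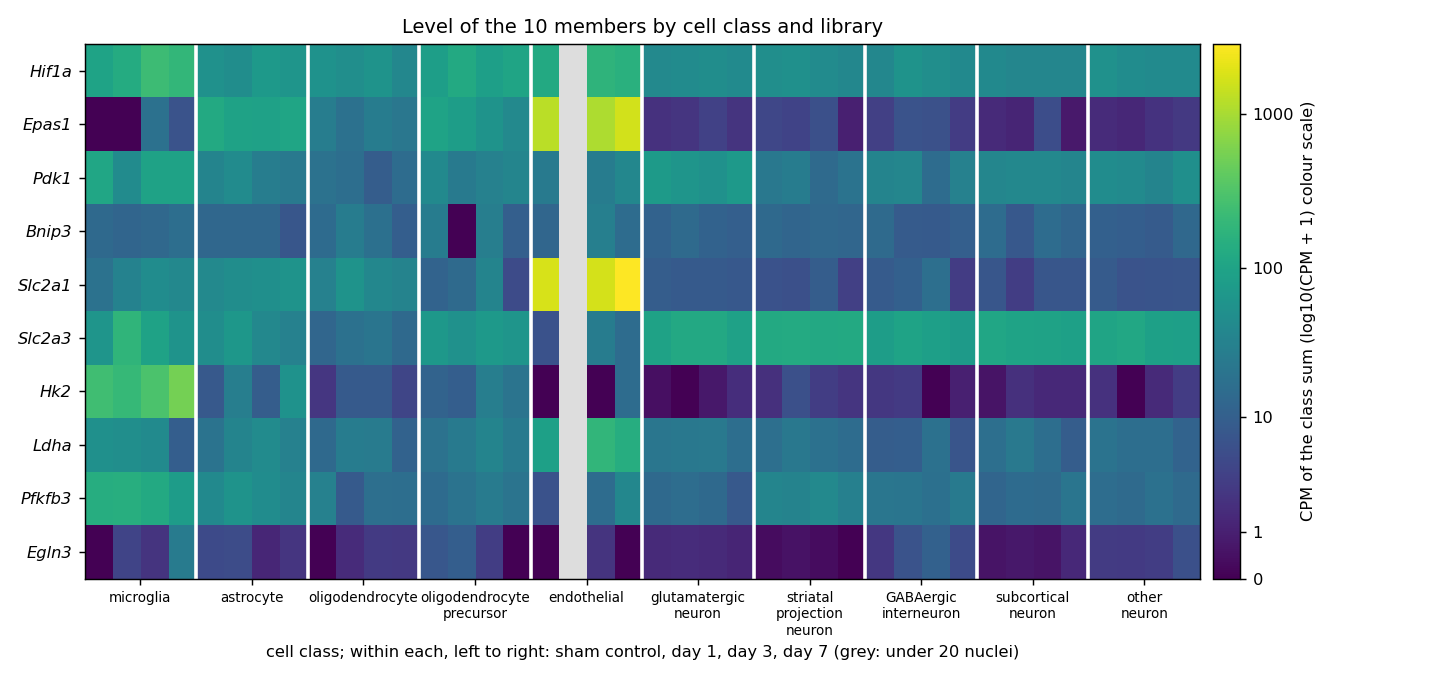
Level of the 10 members (rows) in the nuclei classes (columns) of the 4 libraries, in CPM on a log colour scale. Slc2a1 and Epas1 were concentrated in endothelial-like nuclei and Hk2 in microglia-like nuclei, while Slc2a3 was spread over the neurons. Grey marks a class with under 20 nuclei.

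Hif1a (chr12:73901375-73947530, plus strand, GRCm38) encodes the subunit of the factor that most cells use. In microglia-like nuclei it had 21 UMIs or 100 CPM (62.1 to 153) in sham control, 133 CPM (91.2 to 188) on day 1, 235 CPM (192 to 285) on day 3 and 194 CPM (148 to 251) on day 7. Day 3 was thus the highest library and sham control the lowest. The ratio to sham control was 2.34 (1.45 to 3.95) on day 3 and 1.94 (1.16 to 3.35) on day 7, and day 3 stood 1.76-fold (1.176 to 2.71) above day 1. The level from free RNA was estimated at 21.5 to 36.7 CPM, below all 4 values. Hif1a is among the genes the study lists for its reactive microglia, a list chosen on these same libraries, so this direction is no independent evidence. Markers of infiltrating myeloid cells moved with it, since their summed level in the same nuclei was 119 CPM in sham control, 212 on day 1, 604 on day 3 and 339 on day 7, with 5 to 7 of 9 markers detected. Their part in the result was not tested.

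In all neurons, Hif1a stood at 45.6, 46.5, 46.5 and 41.0 CPM in sham control and on days 1, 3 and 7. In endothelial-like nuclei it had 19, 9, 78 and 20 UMIs, or 123, 277, 177 and 154 CPM. The intervals of the endothelial ratios included 1. The gene overlaps an antisense gene, Gm15283, which had 1188 UMIs over all nuclei against 3293 for Hif1a.

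Within microglia-like nuclei, Hif1a was unequally spread. Spp1, Gpnmb and Hif1a are all among the genes the study lists for its reactive microglia, chosen on these same libraries. The split below is thus no independent evidence, and the part of infiltrating myeloid cells in it was not tested. On day 3 it reached 354 CPM in the 60 nuclei with a UMI of Spp1 or Gpnmb, genes of lipid-handling and phagocytic microglia, and 161 CPM in the 129 nuclei without one, a ratio of 2.20 (1.46 to 3.34). On day 7 the 2 levels were 311 CPM in 21 nuclei and 135 CPM in 74, a ratio of 2.31 (1.34 to 4.01). Nuclei with such a UMI were deeper, with a median of 2175 against 1631 UMIs on day 3 and 2710 against 1899 on day 7. After every nucleus was thinned to 1000 UMIs, the levels were 348 against 164 CPM on day 3 and 483 against 133 on day 7. On day 1, 7 nuclei had such a UMI and no comparison is made. Free RNA alone was estimated to give 217 of the 551 CPM of Spp1 on day 3 and 61.1 of 333 CPM on day 7, so some nuclei with such a UMI may carry it from free RNA.

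Epas1 (chr17:86753700-86833410, plus strand) encodes HIF-2α, known for its high level in blood vessel lining. Endothelial-like nuclei held 193, 56, 477 and 212 UMIs, or 1249, 1722, 1082 and 1635 CPM in sham control and on days 1, 3 and 7. The day 7 level was 1.31-fold (1.07 to 1.599) that of sham control and 1.51-fold (1.28 to 1.78) that of day 3. As a mean over nuclei, the levels were 1173 CPM in sham control, 1325 on day 3 and 1558 on day 7. Astrocyte markers in these nuclei summed to 4311, 1844 and 3285 CPM and pericyte markers to 6117, 3193 and 5752 CPM in the same order. The neuronal and microglial markers given for Ldha moved in these nuclei too. The part of all these markers in the result was not tested. Endothelial-like nuclei contributed 50.9% of all Epas1 UMIs in sham control, 33.5% on day 1, 64.5% on day 3 and 65.2% on day 7. Over all nuclei of a library, Epas1 was 0.56-fold (0.47 to 0.68) sham control on day 1, 1.51-fold (1.34 to 1.72) on day 3 and 1.06-fold (0.91 to 1.23) on day 7, beside an endothelial-like share of nuclei of 1.89% in sham control, 0.589% on day 1, 2.39% on day 3 and 1.34% on day 7.

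Astrocyte-like nuclei held the next highest Epas1 level, 124, 96.1, 95.03 and 107 CPM. In oligodendrocyte precursor-like nuclei the values were 99.4, 83.7, 58.3 and 41.0 CPM, lowest on day 7, where 8 UMIs gave a ratio of 0.41 (0.16 to 0.94). Microglia-like nuclei held 0, 0, 8 and 2 UMIs. Neurons stood at 2.04 to 4.21 CPM, in each library under the 3.44 to 6.65 CPM estimated from free RNA, and their values are read as background even though the ratio on day 3 was 1.603 (1.07 to 2.45).

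Egln3 (chr12:54178981-54203860, minus strand) encodes a hydroxylase that itself is a target of the factors. It was the scarcest member, with 27, 31, 58 and 47 UMIs over all nuclei of sham control and days 1, 3 and 7. Microglia-like nuclei held 0 UMIs in sham control, 1 on day 1, 1 on day 3 and 8 on day 7. The 8 UMIs gave 26.3 CPM (11.4 to 51.9). The exact interval of the ratio to sham control began at 1.176 and has no upper end, since sham control was at 0. Neurons together held 20, 22, 38 and 27 UMIs, or 1.42, 1.98, 2.16 and 2.39 CPM, with ratios of 1.52 on day 3 and 1.69 on day 7 whose intervals included 1. In vascular leptomeningeal-like nuclei, the fibroblasts of the brain coverings, 14, 3, 29 and 16 nuclei held 0, 2, 11 and 7 UMIs, or 0, 65.3, 88.0 and 119 CPM. These classes are too small for comparison.

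Slc2a1 (chr4:119108711-119137983, plus strand) encodes GLUT1, the glucose transporter of the blood-brain barrier. Endothelial-like nuclei held 270, 149, 739 and 368 UMIs, or 1748, 4581, 1676 and 2837 CPM in sham control and on days 1, 3 and 7. At least 1 UMI was found in 39 of 40, 6 of 6, 68 of 74 and 21 of 21 of these nuclei. In these sums, sham control and day 3 lay close together and day 7 above both. The day 7 level was 1.62-fold (1.38 to 1.91) sham control and 1.69-fold (1.49 to 1.92) day 3. With the same ambient UMIs taken from every nucleus, the day 7 log2 ratio was 0.52, short of 1.5-fold. The astrocyte and pericyte markers given for Epas1 and the neuronal and microglial ones given for Ldha moved in these same nuclei, and their part in the result was not tested.

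Over whole libraries, Slc2a1 was 0.85-fold (0.73 to 0.98) sham control on day 1, 1.74-fold (1.56 to 1.95) on day 3 and 1.36-fold (1.20 to 1.55) on day 7, where the endothelial-like share of nuclei was 0.589, 2.39 and 1.34% against 1.89% in sham control. The part of that share in these values was not tested. Within endothelial-like nuclei the day 3 direction was not settled, since the mean over nuclei gave 2000 CPM on day 3 and 1813 CPM in sham control. Endothelial-like nuclei held 58.2% of its UMIs in sham control, 48.4% on day 1, 71.1% on day 3 and 71.9% on day 7. Neurons stood at 8.24, 6.92, 8.77 and 6.11 CPM, under the 8.05 to 11.1 CPM estimated from free RNA, and are read as background. Oligodendrocyte-like nuclei gave 31.8, 58.9, 38.8 and 33.5 CPM, with a day 1 ratio of 1.85 (1.08 to 3.23), where free RNA was estimated at 42.6, 35.9, 41.9 and 36.0 CPM.

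**Figure D2:**
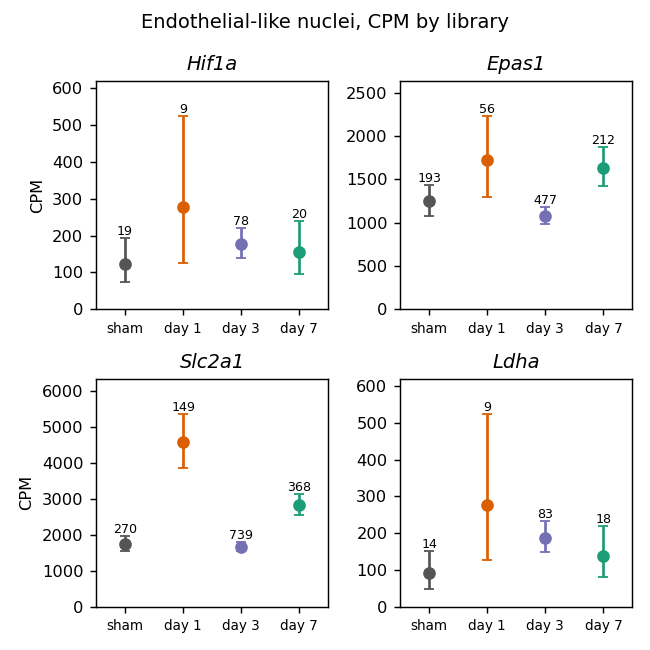
Level of members in endothelial-like nuclei of the 4 libraries, in CPM with exact 95% intervals for counting error, 1 pooled library per point and the UMIs above it. Slc2a1 on day 7 (2837) lay above sham control (1748) and day 3 (1676), and the day 1 points rest on 6 nuclei.

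Slc2a3 (chr6:122727809-122801640, minus strand) encodes GLUT3, the main glucose transporter of neurons. Striatal projection neuron-like nuclei held 427, 264, 401 and 252 UMIs, or 124, 129, 120 and 124 CPM, with no library past the fold. All neurons stood at 105, 114, 109 and 95 CPM, against 12.2 to 14.6 CPM from free RNA. The day 7 ratio in neurons was 0.90 (0.83 to 0.98). In glutamatergic neuron-like nuclei the ratio was 1.23 (1.08 to 1.39) on day 1 and 1.24 (1.11 to 1.38) on day 3. The differences between libraries were therefore small where the gene was abundant.

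In microglia-like nuclei, Slc2a3 had 13 UMIs or 62.1 CPM in sham control, 43 or 179 on day 1, 42 or 96.8 on day 3 and 18 or 59.3 on day 7. Day 1 stood apart at 2.88-fold (1.52 to 5.84). Free RNA was estimated to give 51.7, 44.0, 53.7 and 49.1 CPM, so sham control and day 7 were near background and day 1 was not. The day 1 UMIs came from 14 of 44 nuclei, of which 1 held 9. In sham control and on day 1, neuronal markers in microglia-like nuclei summed to 5673 and 6535 CPM and microglial ones to 9549 and 6723 CPM. Infiltrating myeloid markers summed to 119 and 212 CPM, and median depth was 1798 and 3564 UMIs. Their part in the result was not tested.

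Hk2 (chr6:82725025-82774454, minus strand) encodes hexokinase 2, which phosphorylates glucose on entry. Microglia-like nuclei held 52 UMIs or 249 CPM (186 to 326) in sham control, 49 or 204 (151 to 270) on day 1, 130 or 300 (250 to 356) on day 3 and 163 or 537 (458 to 626) on day 7. Day 7 was above each of the other libraries with intervals that did not overlap. As a mean over nuclei the levels were 325, 320, 356 and 728 CPM, so the order of sham control and day 1 is not settled. The infiltrating myeloid markers given for Hif1a stood at 119 CPM in sham control and 339 CPM on day 7 in these nuclei, and their part in the result was not tested. Hk2 on day 7 was 2.16-fold (1.57 to 3.01) sham control and 1.79-fold (1.41 to 2.27) day 3. A UMI was found in 46.6, 63.6, 45.0 and 71.6% of the nuclei, whose median depths were 1798, 3564, 1742 and 2048 UMIs. In neurons, which use little hexokinase 2, the shares were 0.786, 1.48, 0.88 and 1.55% at median depths of 7743 to 14246 UMIs. Free RNA was estimated at 5.22 CPM or less in microglia-like nuclei. Endothelial-like nuclei held 0, 0, 0 and 2 UMIs of Hk2.

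Microglia-like nuclei held 62.7, 53.3, 68.4 and 73.1% of all Hk2 UMIs in sham control and on days 1, 3 and 7. Over whole libraries, Hk2 was 1.78-fold (1.37 to 2.33) sham control on day 3 and 3.32-fold (2.57 to 4.33) on day 7, beside microglia-like shares of nuclei of 4.15, 4.32, 6.10 and 6.04%. Against day 1, whole-library Hk2 was 1.26-fold (0.98 to 1.63) on day 3 and 2.35-fold (1.83 to 3.03) on day 7. Hk2 ran opposite to Hif1a within the class on day 3, at 180 CPM in the nuclei with Spp1 or Gpnmb UMIs and 374 CPM in those without, a ratio of 0.48 (0.31 to 0.73) that was 203 against 422 CPM after thinning. On day 7 the values were 408 and 603 CPM, and 704 and 738 CPM after thinning. Astrocyte-like nuclei held 5, 11, 7 and 23 UMIs of Hk2, or 8.29, 29.4, 9.37 and 55.8 CPM, too few for a count. Microglial markers summed to 147, 198, 328 and 562 CPM in those nuclei, and their part in it was not tested.

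**Figure D3:**
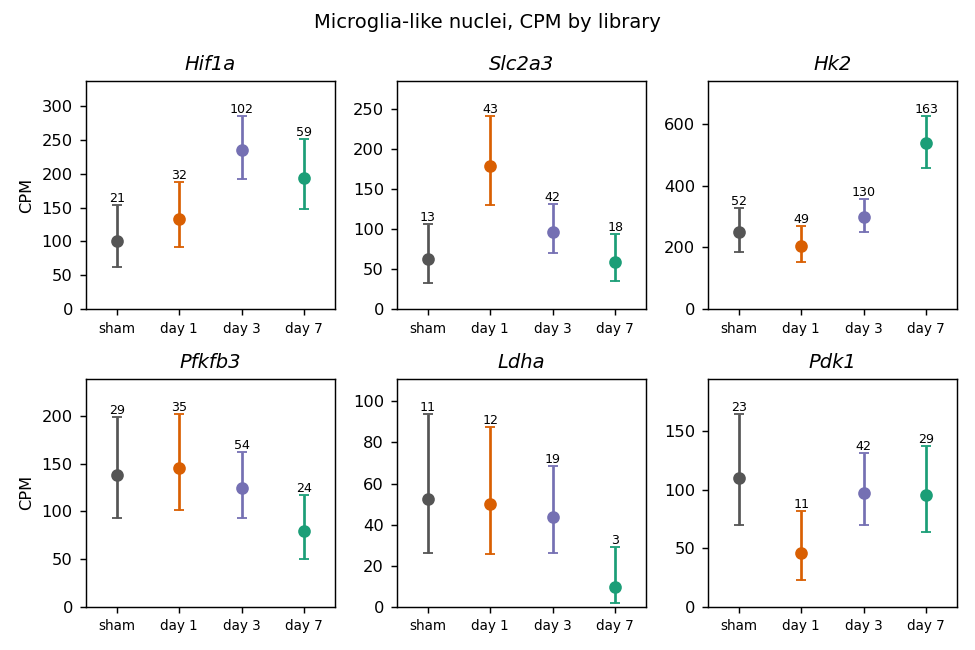
Level of members in microglia-like nuclei of the 4 libraries, in CPM with exact 95% intervals for counting error, 1 pooled library per point and the UMIs above it. Hif1a was highest on day 3 (235), Hk2 on day 7 (537) and Slc2a3 on day 1 (179).

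Pfkfb3 (chr2:11471433-11554077, minus strand) encodes the enzyme that makes fructose 2,6-bisphosphate, an activator of glycolysis. In microglia-like nuclei its levels were 139, 146, 124 and 79.0 CPM from 29, 35, 54 and 24 UMIs. The day 7 ratio was 0.57 (0.32 to 1.01), whose interval reached 1, and it came within 1.5-fold in 3 of 13 alternatives. Hk2 and Pfkfb3 thus had opposite directions on day 7 in the same nuclei. Oligodendrocyte-like nuclei held 25, 5, 18 and 12 UMIs, or 31.8, 8.41, 17.04 and 16.8 CPM, with a day 1 ratio of 0.26 (0.08 to 0.70). The day 1 level lay under the 12.9 CPM estimated from free RNA and those of the other libraries above their 10.2 to 11.1 CPM. Glutamatergic neuron-like nuclei stood at 13.9, 16.2, 14.3 and 8.36 CPM, with a day 7 ratio of 0.60 (0.38 to 0.92) that came within 1.5-fold in 3 of 11 alternatives. Striatal projection neuron-like nuclei held 36.0, 33.7, 41.7 and 30.5 CPM. An antisense gene, Gm10851, overlaps Pfkfb3 and had 414 UMIs against 1420.

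Ldha (chr7:46841475-46855627, plus strand) encodes the A subunit of lactate dehydrogenase, which turns pyruvate into lactate. Endothelial-like nuclei held 14, 9, 83 and 18 UMIs, or 90.6, 277, 188 and 139 CPM, against 42.8, 63.3, 26.8 and 24.8 CPM from free RNA. The day 3 ratio was 2.08 (1.17 to 3.96) and that of day 7 was 1.53 (0.72 to 3.33). In the same nuclei, neuronal markers summed to 1353 CPM in sham control, 3515 on day 3 and 1064 on day 7, and microglial markers to 117, 295 and 470 CPM. Their part in the result was not tested. The day 7 ratio came within 1.5-fold without integration and in nuclei over 2000 UMIs. In astrocyte-like nuclei, 12, 13, 34 and 13 UMIs gave 19.9, 34.7, 45.5 and 31.5 CPM and a day 3 ratio of 2.29 (1.16 to 4.85). Free RNA was estimated there at 38.6, 50.3, 45.1 and 25.3 CPM, above the sham control and day 1 values and level with that of day 3, so that ratio is read as background. The ratio came within 1.5-fold in 0 of 10 alternatives, and the part of free RNA in it was not tested. Neurons stood at 18.6, 20.3, 19.9 and 13.4 CPM, close to the 16.4, 20.8, 17.6 and 14.0 CPM of free RNA, and the day 7 ratio was 0.72 (0.58 to 0.88). Microglia-like nuclei, at 52.6, 49.98, 43.8 and 9.88 CPM, lay below the free RNA estimate in every library.

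Pdk1 (chr2:71873224-71903858, plus strand) encodes pyruvate dehydrogenase kinase 1, which holds pyruvate back from the mitochondria. Microglia-like nuclei held 23, 11, 42 and 29 UMIs, or 110, 45.8, 96.8 and 95.5 CPM, with a day 1 ratio of 0.42 (0.18 to 0.89). In these sums day 1 was the low library, and the ratio came within 1.5-fold when libraries were merged without integration. As a mean over nuclei, the levels were 114, 71.2, 118 and 117 CPM. In the same order, microglial markers in these nuclei summed to 9549, 6723, 9768 and 8099 CPM and neuronal ones to 5673, 6535, 3968 and 6531 CPM. Their part in the result was not tested. Neurons were lowest on day 3, at 49.1, 45.9, 38.8 and 47.9 CPM, a ratio of 0.79 (0.71 to 0.88) on that day. The day 3 interval lay below 1 in 4 of the neuronal classes and not in subcortical neuron-like nuclei, where the ratio was 1.08 (0.78 to 1.52). Glutamatergic neuron-like nuclei stood at 74.8, 61.4, 55.5 and 71.6 CPM, with a day 3 ratio of 0.74 (0.64 to 0.86). Their clusters differed, with day 3 ratios of 0.96 (0.72 to 1.27), 0.71 (0.52 to 0.97), 0.72 (0.56 to 0.91) and 0.59 (0.37 to 0.95) in the 4 compared and sham control levels of 48.7 to 120 CPM. GABAergic interneuron-like nuclei, at 34.7, 37.7, 15.4 and 31.7 CPM, had a day 3 ratio of 0.45 (0.25 to 0.78), and striatal projection neuron-like nuclei one of 0.63 (0.43 to 0.91), which came within 1.5-fold after 1 thinning (log2 ratio -0.14). It was 0.76 (0.579 to 0.997) in neurons of no named type.

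Bnip3 (chr7:138890836-138909519, minus strand) encodes a mitochondrial outer membrane protein of mitophagy. Neurons held 179, 130, 200 and 130 UMIs, or 12.7, 11.7, 11.4 and 11.5 CPM, above the 4.83 to 6.31 CPM of free RNA and close together in all libraries. Microglia-like nuclei, at 14.3, 12.5, 13.8 and 16.5 CPM, were below the free RNA estimate of 16.6 to 26.7 CPM. Endothelial-like nuclei held 2, 2, 13 and 2 UMIs. Among classes with at least 30 UMIs in both sums, none gave a ratio past the fold with an interval off 1. With fewer, oligodendrocyte precursor-like nuclei held 7 UMIs in sham control and 0 on day 1.

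**Figure D4:**
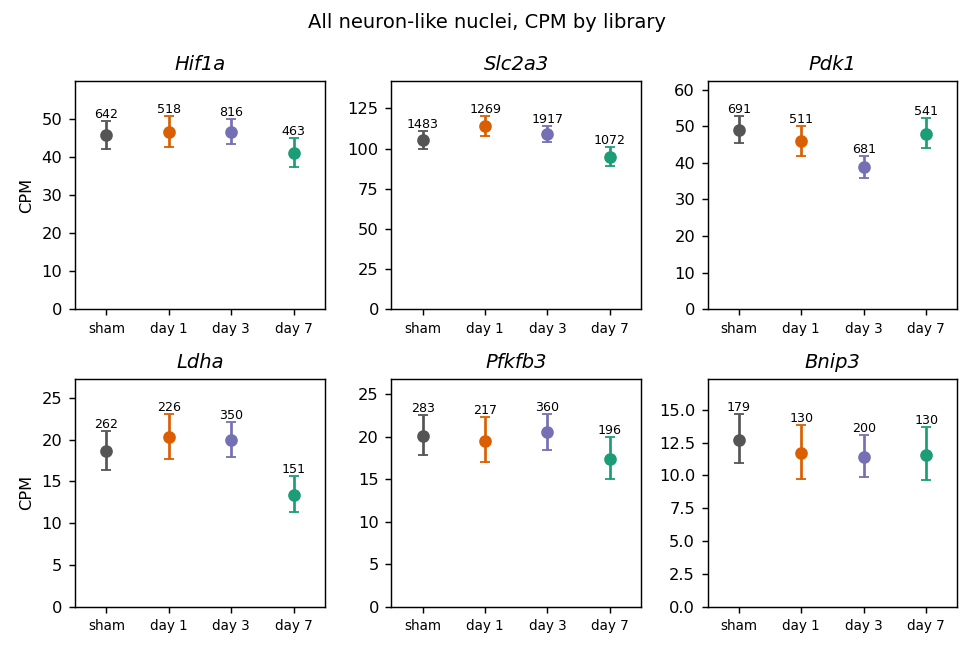
Level of members in all neurons of the 4 libraries, in CPM with exact 95% intervals for counting error, 1 pooled library per point and the UMIs above it. Slc2a3 stayed between 95 and 114, and Pdk1 was lowest on day 3 (38.8).

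Counted over the members, microglia-like nuclei had 1 higher and 1 lower of 5 with enough UMIs on day 1 (background over all genes with enough UMIs, 17.2% higher and 15.1% lower). On day 3 they had 2 higher and 0 lower of 6 (15.7 and 10.6%), and on day 7, 2 higher and 1 lower of 5 (13.9 and 12.5%). The higher ones were Slc2a3 on day 1, Hif1a and Slc2a3 on day 3 and Hif1a and Hk2 on day 7. The lower ones were Pdk1 on day 1 and Pfkfb3 on day 7. The counts rest on few members and are not read as a result about the members as a set.

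Astrocyte-like nuclei had 0 higher and 0 lower of 6 on day 1 (background 9.28 and 16.3%), 1 higher, Ldha, and 0 lower of 7 on day 3 (8.24 and 12.5%) and 0 higher and 1 lower, Slc2a3, of 6 on day 7 (8.45 and 14.6%). Oligodendrocyte-like nuclei had 1 higher and 2 lower of 4 on day 1 (9 and 11.3%), 2 higher and 1 lower of 7 on day 3 (9.9 and 6.64%) and 0 higher and 1 lower of 4 on day 7 (6.6 and 11.8%). Pfkfb3 was the lower member on all 3 days, joined by Epas1 on day 1, and the higher ones were Slc2a1 on day 1 and Slc2a3 and Ldha on day 3. Ldha, at 14.0 and 26.5 CPM in sham control and on day 3, and Slc2a3, at 12.7 and 20.8 CPM, lay under their free RNA estimates of 67.8 and 66.2 CPM and of 50.4 and 51.1 CPM. The estimates were close in both libraries while the levels differed. Both genes are read as background. So is Epas1, at 27.9 and 18.5 CPM in sham control and on day 1 against 26.6 and 15.3 CPM from free RNA. Endothelial-like nuclei had 1 higher and 0 lower of 4 on day 3 (18.6 and 12.8%) and 2 higher and 0 lower of 4 on day 7 (13 and 13.4%), namely Ldha on both days and Slc2a1 on day 7.

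In all neurons, 0 of 10 members were past the fold on day 1 (background 6.94% higher and 3.47% lower). On day 3, 2 of 10 were higher, Epas1 and Egln3, and 0 lower (3.45 and 4.38%), and on day 7, 2 of 10 were higher, Hk2 and Egln3, and 0 lower (4.96 and 5.38%). All 4 ratios came from levels under 5 CPM. The more abundant neuronal members, Slc2a3, Pdk1, Hif1a and Pfkfb3, stayed within the fold on all 3 days.

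**Figure D5:**
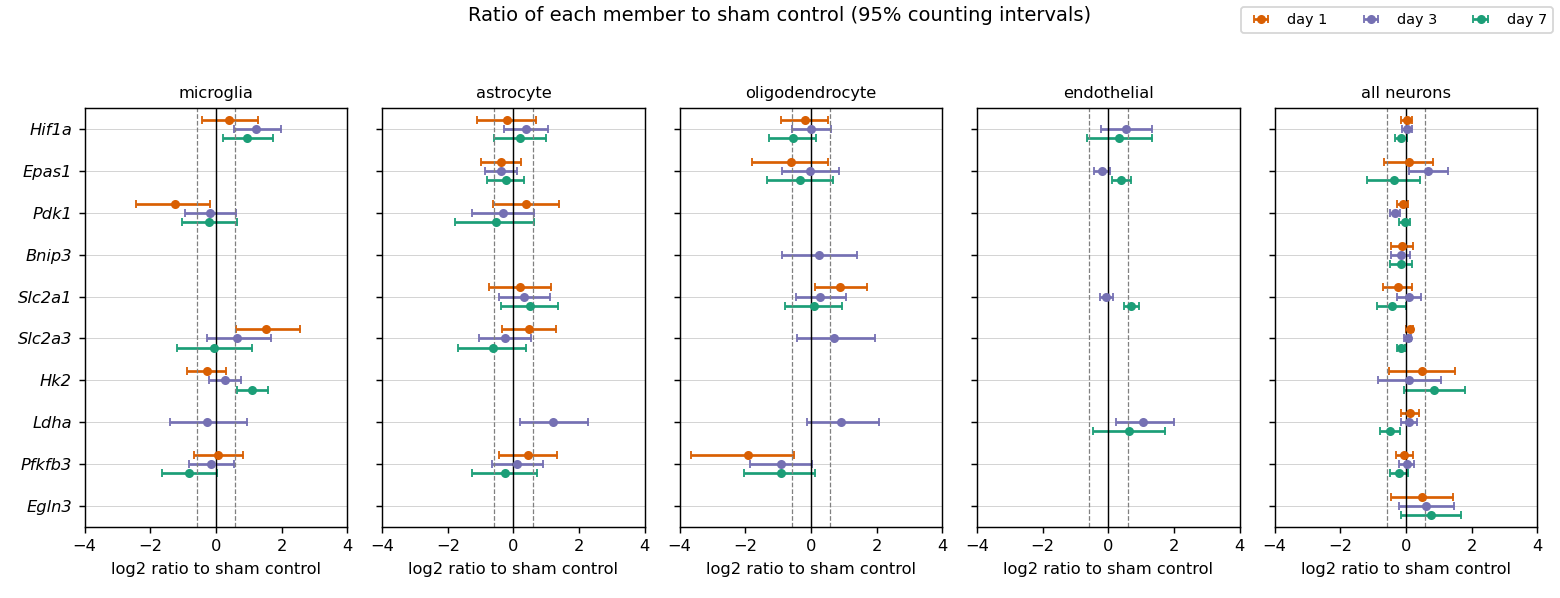
Ratio of each member to sham control on days 1, 3 and 7, on a log2 axis with exact 95% intervals for counting error, for members with at least 30 UMIs in both sums and dashed lines at 1.5-fold. The neuronal ratios of the abundant members lie between the dashed lines, with Pdk1 below 0 on day 3. Hif1a and Hk2 lie to the higher side in microglia-like nuclei on day 7.

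Another 55 genes of the pathway were counted in the same way, 8 HIF subunits, hydroxylases and partners, 23 hypoxia-responsive genes and 24 genes of glycolysis and lactate. In microglia-like nuclei, 2 were higher and 3 lower of 15 on day 1, 5 and 1 of 21 on day 3, and 1 and 5 of 13 on day 7. The shares over all genes given with the member counts above apply to these counts too, for this class and those that follow, and no count is read as particular to the pathway. Hmox1, the heme-degrading enzyme, was 20.3-fold (5.44 to 170) sham control on day 3, Plin2, a lipid droplet coat protein, 17-fold (6.50 to 63.3), and Aldoc, an aldolase, 2.59-fold. Hmox1 and Plin2 reached 194 and 325 CPM there, against 15.4 and 16.9 CPM from free RNA, while Aldoc, at 99.1 CPM, lay under the 192 CPM of free RNA. The infiltrating myeloid markers given for Hif1a moved with them, from 119 to 604 CPM, and their part in the result was not tested. On day 7, the glycolysis genes had 0 higher and 5 lower of 7 with a median log2 ratio of -0.79, against 0.00047 over all genes, in the library where Hk2 was highest. Gapdh stood at 0.32-fold (0.14 to 0.67) and Aldoa at 0.47-fold there, at 36.2 and 85.6 CPM against 140 and 385 CPM from free RNA, and both are read as background. Epo stood at 0.49-fold on day 1.

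In astrocyte-like nuclei, 2 pathway genes were higher and 4 lower of 29 on day 1, 4 and 0 of 34 on day 3 and 1 and 4 of 28 on day 7. Pfkfb2, a relative of Pfkfb3, was 3.22-fold sham control on day 1, and the lactate transporter Slc16a1 3.07-fold and the pyruvate kinase Pkm 1.77-fold on day 3. Pkm, at 179 CPM, was close to the 154 CPM of free RNA, while Pfkfb2 and Slc16a1, at 74.8 and 50.9 CPM, stood above 15.3 and 13.4 CPM. Gapdh, Vegfa and Gpi1 stood at 0.52-, 0.54- and 0.55-fold on day 7. In oligodendrocyte-like nuclei, the counts were 4 higher and 1 lower of 32, 4 and 3 of 37 and 2 and 4 of 31. Hif3a and Ddit4 were 2.65- and 2.06-fold on day 1 and Aldoc 1.88-fold on day 3, while Gapdh and Egln2 were at 0.31- and 0.46-fold on day 7 and Hk1 at 0.47-fold on day 1.

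Endothelial-like nuclei had 5 higher and 2 lower of 26 pathway genes on day 3 and 1 and 1 of 10 on day 7. Ndrg1 was 2.09-fold on day 7. All neurons had 2 higher and 0 lower of 46 on day 1, 3 and 0 of 48 on day 3 and 0 and 2 of 46 on day 7. Hmox1 and Plin2 were 4.49- and 3.81-fold on day 3 and Ddit4 1.58-fold on day 1, while Gapdh and Bhlhe40 were at 0.51- and 0.60-fold on day 7. In each of the 4 libraries, Gapdh lay under its free RNA estimate in microglia-like, astrocyte-like and oligodendrocyte-like nuclei and in neurons, and the estimate itself was 74.8 CPM in neurons of sham control and 40.7 CPM on day 7, so its ratios are read as background. Aldoc and Hk1 in oligodendrocyte-like nuclei also lay under theirs, as did Egln2 there on day 7, at 14.0 against 20.9 CPM, and so did Hmox1 and Plin2 of neurons on day 3, at 1.59 and 2.16 CPM against 3.90 and 4.27 CPM. Ddit4 of neurons was close to its estimate, at 4.62 against 3.48 CPM in sham control and 7.27 against 5.92 CPM on day 1. Infiltrating myeloid markers summed to 3.20 CPM in neurons of sham control and 10.8 CPM on day 3.

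The genes closest to the members in pattern were sought by the Pearson correlation of log2(CPM + 1) over 44 sums of a class in a library, among 13305 genes. The sums share libraries and classes, and the values are descriptions. Hk2 ran with Fyb (0.87), 1700112E06Rik and Frrs1, and Pfkfb3 with Pag1 (0.81), Skap2 and Abi1. Epas1 ran with Itih5 (0.91), Trp53inp1 and Fermt2, and Hif1a with Zcchc6 (0.90), Clic1 and Anxa3. Pdk1 was nearest to Map3k5 (0.75), Asap1 and Rasa4. Slc2a1 was nearest to Atp5j (0.93), Tpt1 and Rpl38, Ldha to Rps23 (0.86), Rps15a and Eif3k, and Bnip3 to Leprotl1 (0.77), Ccs and Zfp763. Egln3 had too few UMIs for this measure.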

How the data were processed

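Nuclei of injured or sham control hemispheres were sequenced as 3′ single-nucleus libraries. Reads were aligned with STAR 2.7.3a to GRCm38/mm10, per the submitters' processing notes, and the deposited matrices hold UMI counts per gene and barcode, without normalization by the authors. Whether counting used strand is not given in the sources used here. Barcodes were called as nuclei with a re-implementation of emptyDrops (ambient profile from barcodes of at most 1000 UMIs, 10000 draws, false discovery rate 0.001), doublets were removed by Scrublet score up to the share loading predicts (146 of 7954 called nuclei), and libraries were integrated and clustered with Seurat 5.3.0 (3000 genes, 30 components, resolution 0.8). UMIs were summed by class and library in Python 3.11.15 (numpy 2.4.6, scipy 1.17.1, scanpy 1.11.5), with exact Poisson, Clopper-Pearson and conditional binomial intervals, all for counting error only. Classes under 20 nuclei in a library were not compared, and the leading class of a member was taken among 10 classes with at least 30 nuclei in sham control. TMM factors came from edgeR 4.0.16 in R 4.3.3 and no count test was run, because each group is 1 library. Depth limits each value through its UMIs. Class sums and the calling of droplets were tested on simulated data. The sums were drawn with counting error only, as the intervals assume, so the spread between nuclei was not tested. Doublet removal, clustering, naming, free RNA estimates and thinning were not tested in this way.

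The members and lists were chosen with earlier results of these data known. All members are described. Of the pathway genes, per class, up to 3 with the largest and 3 with the smallest ratio were named among those past 1.5-fold with an interval off 1. As similar genes, the 3 with the highest correlation were named for members with at least 200 UMIs. Some genes that these rules name are not reported here. Gene positions come from GENCODE, whose identifiers matched all 10 members. The 22 alternatives listed covered calling, doublets, integration, resolution, scaling, weighting of nuclei, thinning, ambient RNA, depth, fold and count minimum. The mean of 100 thinnings was added after the values of the single planned draw were seen, since 1 draw is noisy for sparse genes.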

Additional observations from a re-analysis of the deposited data

How the results depend on the processing

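Of the log2 ratios of members in their leading class, 271 of the values recomputed under alternatives stayed within the counting interval and 10 moved, none of them turning the direction of a member counted as past the fold. Ratios past 1.5-fold came within it, in the same direction, for Slc2a1 in endothelial-like nuclei on day 7 (0.52 with the same ambient UMIs), Ldha there on day 7 (0.49 without integration, 0.41 over 2000 UMIs), Pdk1 in microglia-like nuclei on day 1 (-0.49 without integration), Pfkfb3 there on day 7 (down to -0.27 in size, 3 alternatives), Pfkfb3 in glutamatergic neuron-like nuclei on day 7 (down to -0.41 in size, 3 alternatives) and Pdk1 in striatal projection neuron-like nuclei on day 3 (-0.14 after 1 thinning). Bnip3 in endothelial-like nuclei on day 3 and Egln3 in microglia-like nuclei on day 7, with too few UMIs for a count, also came within it, and Bnip3 turned to -0.12 with the same ambient UMIs taken from every nucleus. For Epas1 in endothelial-like nuclei on day 3 (log2 ratio -0.21) the value was 0.18 as a mean of nuclei, 0.37 after 1 thinning to 1000 UMIs, 0.22 as the mean of 100 thinnings and -0.47 with the same ambient UMIs taken from every nucleus. For Slc2a1 there (-0.06) it was 0.23, 0.16 and -0.32 in the last 3 of these. The direction of neither is therefore settled on day 3. Slc2a3 in striatal projection neuron-like nuclei gave -0.26, -0.42 and -1.01 on days 1, 3 and 7 after 1 thinning, and -0.07, -0.16 and -0.03 as the mean of 100. As a mean of nuclei, the CPM of Epas1 and Slc2a1 on day 3 were 1325 and 2000, and those of Hk2 in microglia-like nuclei 320 on day 1 and 728 on day 7. With ambient RNA subtracted in proportion, the log2 ratio was -1.43 and -2.06 for Pdk1 on day 3 in striatal projection neuron-like and GABAergic interneuron-like nuclei, 1.88 for Slc2a1 in oligodendrocyte-like nuclei on day 1 and -1.55 for Pfkfb3 in glutamatergic neuron-like nuclei on day 7. With the same ambient UMIs taken from every nucleus it was 2.76 for that Slc2a1 value and 2.78 for Slc2a3 in microglia-like nuclei on day 1. TMM scaling moved the ratios of a class by at most 0.1 on the log2 scale.

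Counts of members past the fold are small and shifted easily, in 47 of 98 recomputed counts, for which the cause was not tested beyond what each filter removes. Over all genes, 7.83 to 32.3% were past 1.5-fold in either direction at 30 UMIs, 1.98 to 11.9% past 2-fold, 14.0 to 42.7% at 10 UMIs and 3.27 to 27.7% at 100 UMIs, by class and day. In microglia-like nuclei on days 1, 3 and 7, a minimum of 100 UMIs left 0, 1 and 1, a 2-fold rule left 1 and 1 on days 3 and 7, a minimum of 10 UMIs gave 5 on day 7 and ambient subtraction 1 on day 1. In astrocyte-like nuclei, a minimum of 10 UMIs gave 2 on day 1 and 4 on day 7, every barcode over 1000 UMIs gave 1 and unintegrated libraries 2 on day 1, and the count was 0 at 100 UMIs and with ambient subtraction on days 3 and 7, and 0 on day 7 at 2-fold, with TMM and without integration. In oligodendrocyte-like nuclei on days 1, 3 and 7, 2-fold left 1, 0 and 0, 100 UMIs left 0 on each, 10 UMIs gave 5, 5 and 2, every barcode gave 1 on day 1 and 0 on day 7, no integration 1 on day 1, and ambient subtraction 1 on days 1 and 3. In endothelial-like nuclei, day 3 gave 3 at 10 UMIs, 0 at 100 UMIs and 2 without integration and with ambient subtraction, and day 7 gave 0 at 2-fold, 1 at 100 UMIs and 1 with ambient subtraction. In all neurons, day 1 gave 1 without integration, day 3 gave 0 at 2-fold and 1 at 100 UMIs, with every barcode and without integration, and day 7 gave 0 at 2-fold, 0 at 100 UMIs and 1 with ambient subtraction. Of the pathway genes, 2-fold left 3, 3 and 3 in microglia-like, 1, 1 and 0 in astrocyte-like, 3, 0 and 2 in oligodendrocyte-like nuclei on days 1, 3 and 7, 3 and 1 in endothelial-like nuclei on days 3 and 7, and 0 in all neurons on days 1 and 7.

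No paired analysis was possible because every group had 1 library and the labels carry no replicate numbers and for the same reason leaving out a library was not run. Differences between animals are not measured by any interval given here.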
